A study of Mus with 4 samples.

Results

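The expression of 6 genes that move calcium in the heart muscle cell was examined in RNA-seq libraries of newborn mouse hearts. *Cacna1c*, *Ryr2*, *Casq2*, *Atp2a2*, *Pln* and *Slc8a1* were chosen by their Ensembl gene IDs, and all 6 were found among the 55487 IDs of the deposited table. The study asked how raised microRNA-187 (miR-187) changes the transcriptome of the heart at postnatal day 0 (P0). There were 4 libraries, 2 from wild-type (WT) and 2 from miR-187 mice. In the knock-in line, made on a C57BL/6J background, a *Tek* (*Tie2*) promoter placed at *Rosa26* drives exogenous miR-187 in endothelial cells, and not in cardiomyocytes. The study's methods name cardiac endothelial cells of homozygous knock-in (KI/KI) and WT pups, whereas the labels name the heart. Zygosity, sex, litter and number of animals per library are not given in the labels. The p-values below therefore measure the spread between these libraries, which may be technical.

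With every heartbeat, calcium enters the cardiomyocyte through the L-type channel and opens ryanodine receptors in the sarcoplasmic reticulum (SR), which release a larger amount of stored calcium onto the myofilaments. Relaxation follows as the SERCA pump returns calcium to the SR and the sodium-calcium exchanger carries the remainder out of the cell. In the newborn mouse heart the SR system is still maturing, and entry and exit across the surface membrane carry more of the load than in the adult.

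Values are FPKM (fragments per kilobase of transcript, scaled to the mapped fragments of the library), a scale on which levels of different genes can be compared per length. Differences between groups are given on the log2(FPKM + 1) scale as miR-187 minus WT. Read depth is unknown, and precision rests on 2 libraries per group. The FPKM sums of the libraries lay between 750826 and 807359, and the 10 most abundant IDs took from 32.3% (WT replicate 2) to 47.5% (miR-187 replicate 1) of a library. WT replicate 2 stood apart from the other 3 libraries in the results below, and the group differences as deposited are therefore also given without it.

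In the RefSeq annotation of GRCm38.p6, the assembly also called mm10 that the submitters' processing notes name, the 6 genes lie on 6 chromosomes and differ greatly in span. *Cacna1c* (chr6:118587240-119197384, 610 kb), *Ryr2* (chr13:11553099-12106945, 554 kb) and *Slc8a1* (chr17:81373105-81738387, 365 kb) are long genes. *Casq2* (chr3:102086415-102146514, 60.1 kb), *Atp2a2* (chr5:122453513-122502225, 48.7 kb) and *Pln* (chr10:53337686-53345999, 8.31 kb) are shorter. The whole of *Pln* lies inside the span of *Cep85l* (chr10:53273441-53379883), and the span of *Cacna1c* overlaps 7 other annotated genes, among them the protein-coding *Dcp1b*. The other 4 overlap none. Because the use of strand in counting was not stated, the values of *Pln* and *Cacna1c* may include reads of the genes that overlap them. For each of the 6 genes, 0 other IDs had values within 5% of its own in all 4 libraries.

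The transcripts of SR uptake and storage were the most abundant of the 6. *Pln* had a mean of 277 FPKM over the 4 libraries and ranked between 150 and 348 among the 55487 IDs, and *Atp2a2* ranked between 209 and 470 with a mean of 219 FPKM. *Casq2* ranked between 443 and 1064, *Ryr2* between 1966 and 3610, *Slc8a1* between 2342 and 6148 and *Cacna1c* between 4448 and 6832. The study's methods speak of cardiac endothelial cells and the labels of heart tissue; *Pln*, *Casq2* and *Ryr2*, which are cardiomyocyte genes in the heart, were present in all 4 libraries at these ranks. Other markers of cardiomyocytes, endothelial cells or chambers were not analysed here, since names of genes are missing from the table and 0 of its IDs were paired with symbols in the reference table used. The methods describe a magnetic sort of heart endothelial cells by CD31, which would remove most cardiomyocytes; whether these libraries went through it is not stated in the labels. In such bulk samples, fewer cardiomyocytes, fewer carried through a sort and less of these RNAs per cardiomyocyte cannot be told apart.

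The order of the levels, *Pln* over *Atp2a2*, *Casq2*, *Ryr2*, *Slc8a1* and *Cacna1c*, was the same in 4 of 4 libraries. It spanned 48.9-fold between the means of *Pln* and *Cacna1c*. The step between *Casq2* and *Ryr2* was the clearest, since the lowest *Casq2* value (49.1 FPKM) lay above the highest *Ryr2* value (25.2 FPKM). The ranges of every other pair of neighbours overlapped across libraries, although within a library the order held. The closest neighbours were *Pln* and *Atp2a2*, whose ratio was between 1.03 and 1.42. The ratio was between 1.25 and 2.15 for *Ryr2* to *Slc8a1* and between 1.20 and 2.37 for *Slc8a1* to *Cacna1c*.

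**Figure D1:**
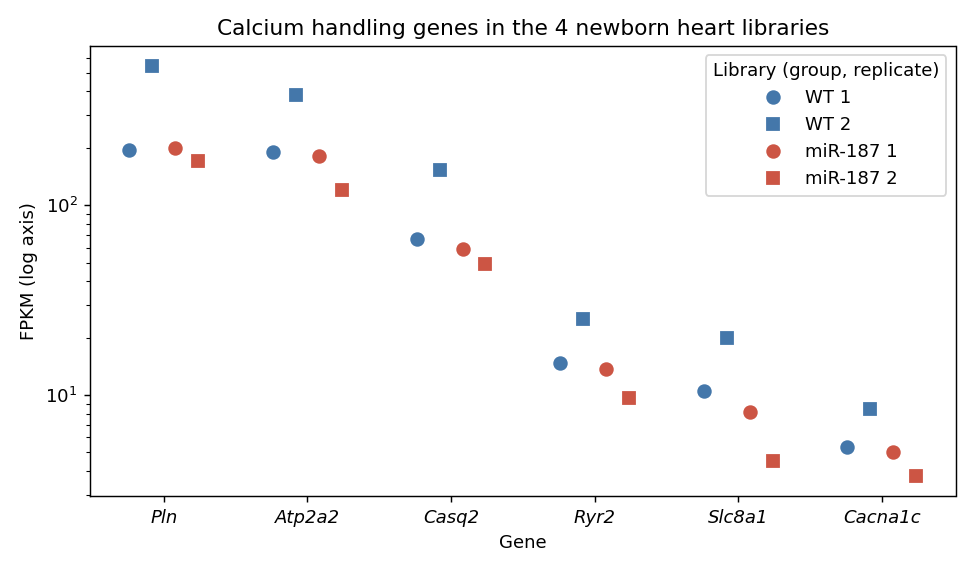
FPKM of the 6 genes (log axis) in each library, with WT in blue, miR-187 in red, replicate 1 as circles and replicate 2 as squares. Each point is 1 library. WT replicate 2 is the highest library for all 6 genes and miR-187 replicate 2 the lowest, while WT replicate 1 and miR-187 replicate 1 lie close together.

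Calcium entry was examined first. *Cacna1c* (ENSMUSG00000051331.16) encodes the pore-forming subunit of the cardiac L-type channel, through which each beat's trigger calcium enters. WT replicates 1 and 2 held 5.36 FPKM and 8.50 FPKM, against 5.05 and 3.77 FPKM for miR-187 replicates 1 and 2. Both miR-187 libraries were below both WT libraries, but WT replicate 1 exceeded miR-187 replicate 1 only 1.06-fold, whereas the WT libraries differed from one another 1.59-fold. The log2 difference between groups was -0.53 with a standard error (SE) of 0.36, the smallest of the 6, and it did not pass the test (limma adjusted p = 0.9997).

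SR release and storage came next. *Ryr2* (ENSMUSG00000021313.16) encodes the ryanodine receptor, the release channel of the SR. The WT libraries had 14.9 and 25.2 FPKM, against 13.7 and 9.69 FPKM in miR-187. *Casq2* (ENSMUSG00000027861.13) encodes calsequestrin, the protein that holds calcium inside the SR beside the release channel. It reached 66.5 and 153 FPKM in the WT libraries, against 59.0 and 49.1 FPKM in miR-187. For both genes the groups did not overlap, with the first WT library just above the higher miR-187 library, by 1.09-fold for *Ryr2* and 1.13-fold for *Casq2*. The log2 difference was -0.70 (SE 0.39) for *Ryr2* and -0.90 (SE 0.44) for *Casq2*, and neither passed the test (limma adjusted p = 0.9997 for each).

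SR uptake depends on the pump and its inhibitor. *Atp2a2* (ENSMUSG00000029467.15) encodes SERCA2, which pumps calcium back into the SR; the table gives 1 value per gene, so the cardiac and the widely expressed isoforms were not separated. Its level was 190 and 382 FPKM in the WT libraries, against 183 and 121 FPKM in miR-187. *Pln* (ENSMUSG00000038583.13) encodes phospholamban, a small membrane protein that slows SERCA2 until it is phosphorylated. The WT libraries had 196 and 540 FPKM of *Pln*, those of miR-187 had 202 and 172 FPKM, and it was the one gene of the 6 whose groups overlapped. In replicate 1, WT and miR-187 were nearly equal for both genes, with WT to miR-187 ratios of 1.04 for *Atp2a2* and 0.973 for *Pln*. The log2 difference was -0.85 (SE 0.45) for *Atp2a2* and -0.80 (SE 0.48) for *Pln*, and neither passed the test (limma adjusted p = 0.9997 for each).

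Calcium exit was the step with the largest difference of the 6. *Slc8a1* (ENSMUSG00000054640.15) encodes NCX1, the exchanger that trades calcium out for sodium in. Its level was 10.6 and 20.1 FPKM in the WT libraries, against 8.12 and 4.51 FPKM in miR-187, so that each miR-187 library was below each WT library. The WT mean was 15.3 ± 6.76 FPKM (SD, n = 2), and the mean of the miR-187 group was 6.32 ± 2.55 FPKM (SD, n = 2). On the log2 scale the difference was -1.14 (SE 0.40), with a 95% interval from -1.97 to -0.31. It was the only member whose interval left out 0 before adjustment, with an unadjusted p of 0.00937 in limma, and it did not pass after adjustment over all genes (adjusted p = 0.9997).

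Set against all 14325 genes tested, 0 of the 6 genes passed the adjusted threshold of 0.05, where 1 gene (0.00698%) was called lower and 0 (0%) higher. Of the 6, 1 had an unadjusted limma p under 0.05 and was lower, against 1.80% of all genes, and 0 were higher, against 1.32%. In the values as deposited, both miR-187 libraries lay below both WT libraries for 5 of the 6. The pattern was found in 13.2% of genes tested and in 13.3% of the 3737 genes that averaged 10 FPKM or more. The converse, both miR-187 libraries on top, held for 0 of the 6 and 12.3% of genes. The log2 difference was below 0 for 6 of the 6 and for 55.7% of all genes. Its median was -0.83 over the 6 genes and -0.04 over all. Only 0.405% of genes had a log2 difference further below 0 than that of *Slc8a1*, and the corresponding share was 1.33% for *Casq2*, 1.63% for *Atp2a2*, 2.20% for *Pln*, 3.59% for *Ryr2* and 7.53% for *Cacna1c*. These shares describe the place of each gene in the comparison; the 6 genes varied together from library to library, as shown next, and are not 6 independent observations.

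**Figure D2:**
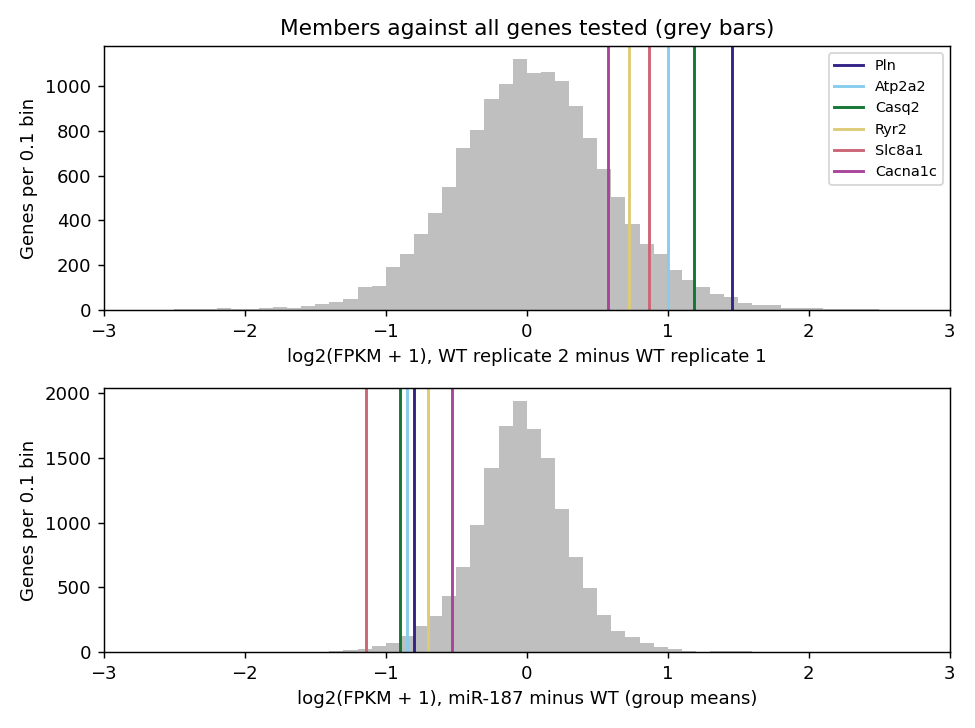
Differences on the log2(FPKM + 1) scale for all 14325 genes tested (grey bars, genes per 0.1 bin) with the 6 genes as coloured lines. The upper panel shows WT replicate 2 minus WT replicate 1, where the 6 genes lie between 0.58 and 1.45, and the lower panel shows miR-187 minus WT, where they lie between -1.14 and -0.53.

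The 6 genes varied together across the libraries. WT replicate 2 was the highest library for 6 of the 6, against 29.1% of all genes tested, and miR-187 replicate 2 was the lowest for 6 of the 6, against 39.1%. Both held at once for 14.2% of all genes tested and for 14.4% of those that averaged 10 FPKM or more. Measured on the log2 FPKM scale from each gene's own mean, the average deviation of the 6 genes was 0.94 for WT replicate 2 and -0.67 for miR-187 replicate 2. The replicate 1 libraries lay nearer to the means, at -0.07 for WT and -0.20 for miR-187. A single shift per library, common to the 6 genes, accounted for 93.4% of their variance around the gene means. The median deviation of all genes tested, on the log2(FPKM + 1) scale, was close to 0 by comparison, at 0.02 for WT replicate 2 and -0.12 for miR-187 replicate 2. The median excess of WT replicate 2 over WT replicate 1 on this scale was 0.33 over genes that averaged 10 FPKM or more, beside 0.94 over the 6 genes and 0.04 over all genes tested.

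**Figure D3:**
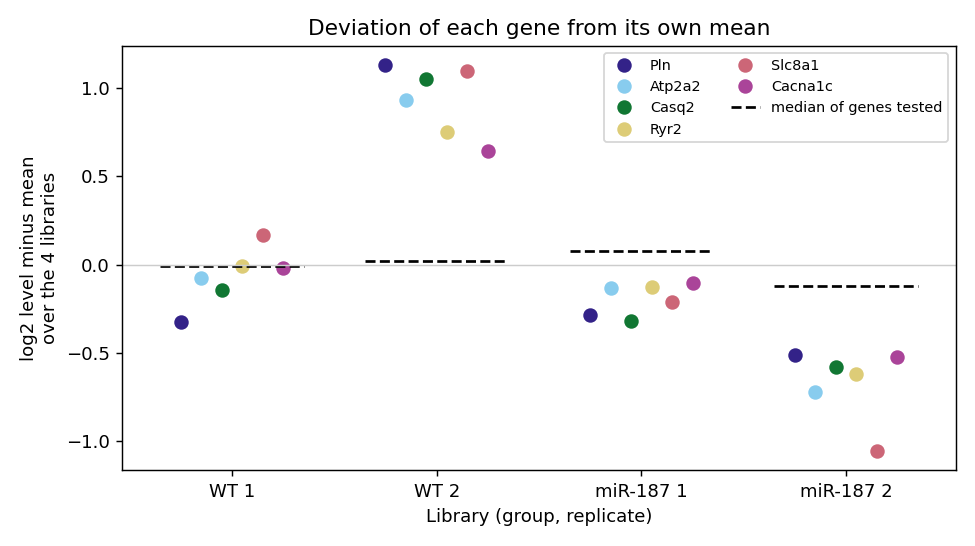
Log2 FPKM of each gene minus its mean over the 4 libraries, with 1 coloured point per gene and library; the dashed bars are the median of the same deviation over all genes tested, on the log2(FPKM + 1) scale. The 6 genes lie from 0.65 to 1.13 above their means in WT replicate 2, while for miR-187 replicate 2 their deviations run from -1.06 to -0.51.

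For 5 of the 6 genes, the WT libraries differed from one another by more than the group means did on the log2(FPKM + 1) scale, and *Slc8a1* was the exception (0.87 between the WT libraries, against a group difference of -1.14). WT replicate 2 exceeded WT replicate 1 by 2.75-fold for *Pln*, 2.30-fold for *Casq2*, 2.01-fold for *Atp2a2*, 1.90-fold for *Slc8a1*, 1.69-fold for *Ryr2* and 1.59-fold for *Cacna1c*. Among all genes tested, 1.15% had a larger excess of WT replicate 2 over WT replicate 1 on the log2(FPKM + 1) scale than *Pln*, and 15.7% a larger one than *Cacna1c*. Between the miR-187 libraries, replicate 2 was the lower for all 6 genes, with ratios to replicate 1 from 0.555 for *Slc8a1* to 0.855 for *Pln*. *Pln* thus varied most between the WT libraries and least between the miR-187 libraries.

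The group difference depended on which libraries were compared. Between the replicate 1 libraries, the log2 difference was -0.34 for *Slc8a1*, -0.17 for *Casq2*, -0.11 for *Ryr2*, -0.07 for *Cacna1c*, -0.06 for *Atp2a2* and 0.04 for *Pln*. Between the replicate 2 libraries it was -1.94 for *Slc8a1*, -1.65 for *Atp2a2*, -1.64 for *Pln*, -1.62 for *Casq2*, -1.29 for *Ryr2* and -0.99 for *Cacna1c*. WT replicate 1 also exceeded miR-187 replicate 2 for each gene, from 1.14-fold for *Pln* to 2.34-fold for *Slc8a1*. Without WT replicate 2, the group difference shrank to -0.07 for *Pln*, -0.24 for *Cacna1c*, -0.30 for *Casq2*, -0.34 for *Ryr2*, -0.35 for *Atp2a2* and -0.71 for *Slc8a1*. *Slc8a1* therefore kept the largest difference of the 6, although it did not pass the test here either (limma adjusted p = 1.00). The part that WT replicate 2 has in these differences is a measurement on 1 library, and its cause was not tested.

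**Figure D4:**
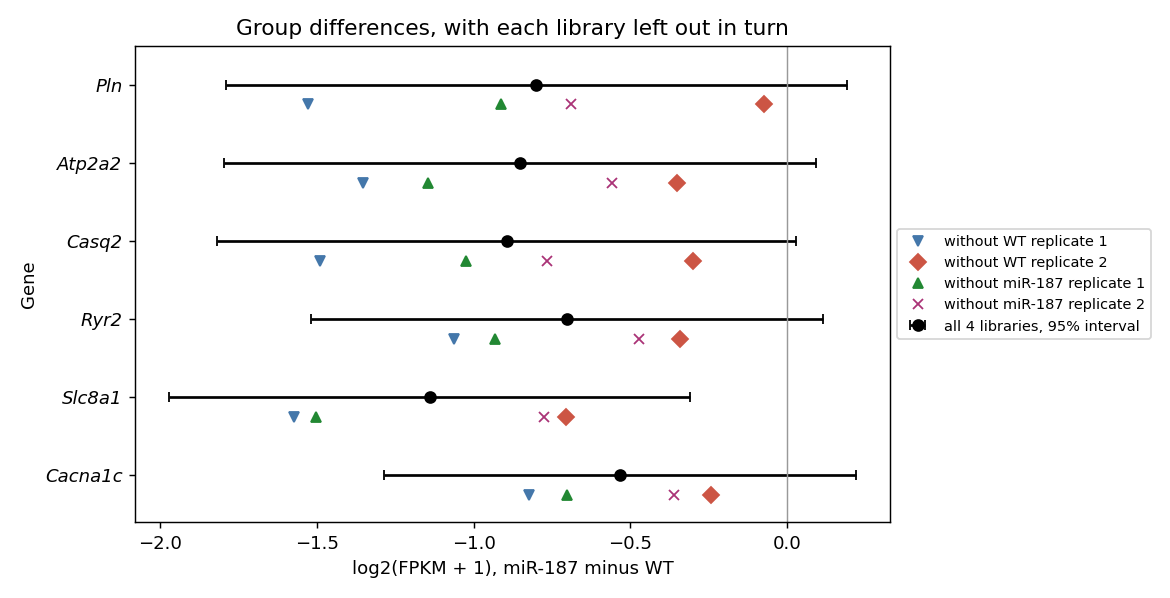
Log2(FPKM + 1) difference, miR-187 minus WT, for each gene with all 4 libraries (black circles with 95% intervals from limma) and with each library left out in turn (coloured symbols). The interval of *Slc8a1* lies below 0 and those of the other 5 genes include 0. Leaving out WT replicate 2 moved every gene nearest to 0.

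WT replicate 2 had the smallest share of its FPKM sum in its 10 most abundant IDs (32.3%), followed by miR-187 replicate 2 (40.0%), WT replicate 1 (44.9%) and miR-187 replicate 1 (47.5%). The part of these shares in the levels of the 6 genes was not tested. The 12 IDs that were among the 10 most abundant of any library were then left out, and each library was rescaled. WT replicate 2 still exceeded WT replicate 1 for all 6 genes, by 1.34-fold for *Cacna1c* (1.59-fold as deposited) to 2.33-fold for *Pln* (2.75-fold as deposited). On this scale WT replicate 1 and miR-187 replicate 1 lay close together, with WT to miR-187 ratios from 0.903 for *Pln* to 1.21 for *Slc8a1*. The ratio was below 1 for *Cacna1c* (0.986), *Atp2a2* (0.965) and *Pln*, so the groups overlapped for these genes after rescaling. The group differences were then -0.47 for *Cacna1c*, -0.62 for *Ryr2*, -0.69 for *Pln*, -0.74 for *Atp2a2*, -0.79 for *Casq2* and -1.10 for *Slc8a1*.

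Ratios between members within a library are free of any scaling between libraries, but not of differences in cell types between bulk samples. These ratios varied less than the levels. The levels of single genes spanned 2.25-fold to 4.46-fold from the lowest to the highest library. Over the 15 pairs of members, ratios spanned 1.15-fold to 2.06-fold, with a median of 1.49-fold. A choice of 5 ratios, each between genes that act together or in opposition, is described below, and a test of 2 libraries against 2 cannot give an exact permutation p under 0.33.

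The ratio of inhibitor to pump, *Pln* to *Atp2a2*, did not separate the groups. It was 1.03 and 1.41 in WT and 1.10 and 1.42 in miR-187, so that both replicate 2 libraries were above both replicate 1 libraries. The log2 ratio differed between groups by 0.05 (two-sided exact permutation p = 0.667). The ratio of stored-calcium protein to release channel, *Casq2* to *Ryr2*, also followed the replicate numbers, with 4.47 and 6.08 in WT and 4.31 and 5.07 in miR-187 and a log2 difference of -0.16 (two-sided exact permutation p = 0.667). The ratio of SR pump to release channel, *Atp2a2* to *Ryr2*, was 12.8 and 15.2 in WT and 13.4 and 12.5 in miR-187, with a log2 difference of -0.11 (two-sided exact permutation p = 0.667).

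The remaining ratios were lower in both miR-187 libraries than in both WT libraries. The ratio of release channel to entry channel, *Ryr2* to *Cacna1c*, was the steadiest, at 2.77 and 2.96 in WT and 2.71 and 2.57 in miR-187. Its log2 difference was -0.12, and its exact permutation p (two-sided) was 0.33, the smallest this design can give. The difference was -0.07 without WT replicate 2 and -0.08 without miR-187 replicate 2, with an exact permutation p of 0.667 in each case. The ratio of exchanger to SR pump, *Slc8a1* to *Atp2a2*, compares transcripts for the routes by which calcium leaves the cytosol. It was 0.0556 and 0.0526 in WT and 0.0444 and 0.0372 in miR-187. The log2 difference was -0.41, with log2 SDs of 0.06 in WT and 0.18 in miR-187 (n = 2 each), and the two-sided exact permutation p was again 0.33. It was -0.45 without WT replicate 2, -0.37 without WT replicate 1 (exact permutation p = 0.667), -0.54 without miR-187 replicate 1 and -0.28 without miR-187 replicate 2. Over all pairs, 4 of the 15 ratios had groups that did not overlap, 9 separated the replicate numbers and 2 the crossed pairing. Any set of 4 different values has such a gap under 1 of the 3 possible pairings of libraries, and the 15 ratios share 6 genes, so nothing is read from these counts.

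**Figure D5:**
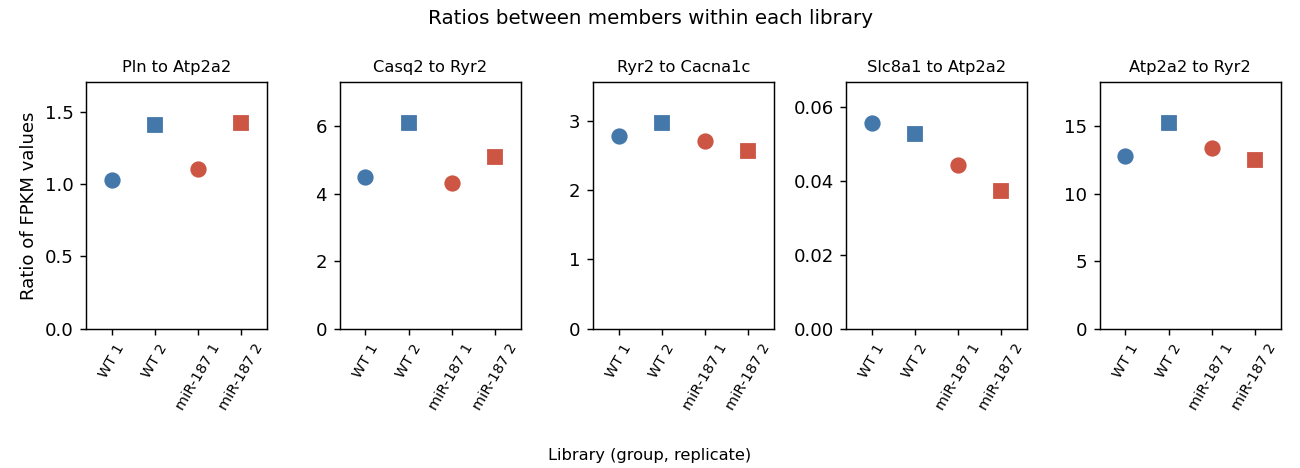
Ratio of FPKM values between 2 members in each library (vertical axes start at 0 and differ between panels), with WT in blue, miR-187 in red, replicate 1 as circles and replicate 2 as squares. *Pln* to *Atp2a2* and *Casq2* to *Ryr2* separate the replicate numbers, whereas *Slc8a1* to *Atp2a2* is 0.0526 or more in WT and 0.0444 or less in miR-187.

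The profile of each gene over the 4 libraries was also compared with those of 3737 others, the genes of at least 10 FPKM and the members, using the root mean square distance between log2(FPKM + 1) values centred on each gene's mean. With 4 libraries such profiles are easily matched, and the distances are a description. The nearest of the other members ranked 8th for *Slc8a1* (*Atp2a2*), 19th for *Pln* (*Casq2*), 22nd for *Casq2* (*Pln*), 22nd for *Atp2a2* (*Ryr2*), 25th for *Ryr2* (*Cacna1c*) and 54th for *Cacna1c* (*Ryr2*). The least alike were *Cacna1c* and *Slc8a1*, with *Slc8a1* at rank 1475 as seen from *Cacna1c*. The 2 closest matches to any member were ENSMUSG00000045636.16 to *Cacna1c*, at a distance of 0.0198, and ENSMUSG00000035352.3, also to *Cacna1c*, at 0.0246; no names are paired with these IDs.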

How the data were processed

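The libraries, labelled as hearts of P0 mice, were profiled by paired-end mRNA sequencing, whereas the study's methods name cardiac endothelial cells. The authors deposited 1 table of FPKM values for 55487 Ensembl IDs; HISAT2, StringTie, DESeq2 and mm10 are named in the submitters' processing notes, while versions, annotation and strand use are not given in the sources used here. FPKM divides by transcript length and mapped total, so abundant transcripts lower all other values. No whole-read steps were seen: of 502 low IDs, 0.996% shared the commonest ratio between the WT libraries. Depth is therefore unknown.

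The 14325 genes whose mean reached 1 FPKM were compared as log2(FPKM + 1) with limma 3.58.1 (R 4.3.3; lmFit, eBayes with trend, two-sided, Benjamini-Hochberg adjustment over all genes, threshold 0.05). The fit was also run on simulated data with independent noise for each gene and library. That run had no variation shared between genes, and no result here rests on it. Ratios were compared by exact permutation. Figures were drawn with matplotlib 3.10.9. The alternatives changed the pseudocount (0.1), the minimum mean (0.1 FPKM, 5 FPKM or no filter), the scaling (TPM, median centring, TMM factors, quantile normalization), the trend in eBayes, the replicate block and, in turn, the libraries included. Removal of abundant IDs was added after seeing the data.

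The 6 genes and all lists were chosen with earlier results of these data known. The rule for named genes took the 6 members, set numbers of genes per list and the nearest profiles. Since the RefSeq table (GRCm38.p6) pairs 0 Ensembl IDs with its symbols, 19 further lists with 143 symbols, on other calcium genes and on cell types, were not analysed here, and of the nearest profiles only 2 IDs are given.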

Additional observations from a re-analysis of the deposited data

How the results depend on the processing

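Of 15 alternatives, 5 (the filters, eBayes without trend and the replicate block) cannot change the difference of a gene. Under the other 10, the differences of the 6 genes were below 0 in 60 of 60 values (-1.57 to -0.07). For the 5 genes whose groups did not overlap, the pseudocount and leaving out 1 library cannot change the sign. None of the 6 passed the threshold under any of the 15. With 1 library left out, the differences ran from -1.53 to -0.07 for *Pln*, -1.35 to -0.35 for *Atp2a2*, -1.49 to -0.30 for *Casq2*, -1.06 to -0.34 for *Ryr2*, -1.57 to -0.71 for *Slc8a1* and -0.82 to -0.24 for *Cacna1c*; the lone library of a group is then assumed to vary like the others. In each case the value nearest to 0 was the one without WT replicate 2.

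Over the genes tested, deviations from the group mean had a correlation of r = -0.0675 between libraries with the same number. As no label ties a number to a litter or batch, the libraries were treated as unpaired. The replicate block left the differences of the 6 genes as they were by construction (-1.14 for *Slc8a1*), with a lowest adjusted p of 0.914, and gave 33 higher and 18 lower genes over the whole table.

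The count of genes called over the whole table (0 higher, 1 lower) was less steady. It was 31 higher and 15 lower with a minimum mean of 0.1 FPKM, 3 higher and 2 lower on the TPM scale and 23 higher and 12 lower with abundant IDs left out; these 3 settings also raised the number of genes tested, to 49380, 16150 and 24621, since the minimum of 1 was applied on the new scale in the latter 2. There were 0 lower genes with a minimum mean of 5 FPKM, without a filter and with quantile normalization. With 1 library left out, the higher genes numbered from 11, when it was miR-187 replicate 2, to 62, when it was miR-187 replicate 1. The lower genes numbered from 14, again with miR-187 replicate 2 removed, to 56 with WT replicate 1 removed. The cause of these changes was not tested. In the fits with a minimum of 0.1 FPKM, the block, abundant IDs left out or 1 library left out, limma's prior degrees of freedom were infinite, so that a gene's own spread did not enter its test.

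Of the log2 ratio differences, 3 changed sign when a library was left out, with ranges from -0.173 to 0.279 for *Pln* to *Atp2a2*, -0.379 to 0.0623 for *Casq2* to *Ryr2* and -0.232 to 0.0159 for *Atp2a2* to *Ryr2*. Without overlap between groups, the sign was fixed for *Ryr2* to *Cacna1c* (-0.167 to -0.0713) and *Slc8a1* to *Atp2a2* (-0.540 to -0.284). Alternatives for the gene lists were not run, as no names were paired with the IDs.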
